A study of Mus musculus with 64 samples.

Results

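The hippocampus of the mouse strain NZO/HlLtJ (NZO_HlLtJ in the labels) was compared with that of 7 other inbred strains by bulk RNA sequencing. NZO/HlLtJ is represented by 8 of the 64 libraries, those whose titles begin with the numbers 426 to 442 and carry the strain's name. The other 56 libraries come from C57BL/6J, 129S1/SvImJ, NOD/ShiLtJ, A/J, CAST/EiJ, PWK/PhJ and WSB/EiJ. Each strain has 4 female and 4 male libraries, so that 4 NZO/HlLtJ females stand against 28 females and 4 NZO/HlLtJ males against 28 males. The labels give strain, sex and tissue, and no treatment. Age, diet, body weight and blood glucose are not given in the sources used here. The labels also do not say whether the 8 libraries come from separate animals, and the p-values measure only the spread between libraries.

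NZO stands for New Zealand Obese. The strain is known for polygenic obesity, insulin resistance and, in many males, diabetes, and the Collaborative Cross and the Diversity Outbred mice descend from it and the other 7 strains. The hippocampus serves memory and spatial navigation and holds pyramidal neurons of the CA fields, granule neurons of the dentate gyrus, interneurons, glia and vessels, with meninges and choroid plexus close by. In bulk tissue, fewer cells of a type cannot be told apart from less RNA per cell.

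Total counts of the NZO/HlLtJ libraries ran from 19274575 to 24333049, within the 16607602 to 27759221 of all 64, and 17382 genes were tested. Xist and Ddx3y fitted the labelled sex in 64 of 64 libraries. No pair of libraries agreed within counting noise. The dentate granule marker Prox1 was at 98.7 ± 11.3 CPM (counts scaled to a common library size, hereafter the unit of every level; SD, n = 8) in NZO/HlLtJ and at 98.4 ± 14.9 (n = 56) in the others, and Slc17a7, the vesicular glutamate transporter of excitatory neurons, was at 1430 ± 85.0 and 1709 ± 224 CPM. Both markers of the labelled tissue were thus present in the strain. For NZO/HlLtJ the block of title numbers runs with strain, and both cannot be told apart. In CAST/EiJ it also runs with sex, with males at 393 to 398 and females at 639 to 643.

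NZO/HlLtJ was first set against the mean of the other strains, each strain with the same weight and both sexes balanced. A gene was called when its adjusted p was under 0.05 (from the quasi-likelihood test of edgeR, adjusted by Benjamini and Hochberg's method over all genes tested, as for every adjusted p below) and its log2 fold change was at least 1 in size. Of the genes tested, 464 (2.67%) were called higher in NZO/HlLtJ and 170 (0.978%) lower, 634 in all (3.65%), so that 73.2% of the calls were higher. With no minimum on the fold, 3790 genes (21.8%) were higher and 2820 (16.2%) lower, and the median log2 fold change of all genes tested was 0.00985. A call against a mean can rest on a few of the strains. Taking the 7 strains one at a time, 5 of the genes called higher passed against 1 strain and 81 against 2, while 44 passed against 6 and 34 against all 7.

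The genes that set NZO/HlLtJ apart from every other strain were far fewer. A gene beyond each strain had to be called in the same direction in all 7 comparisons with 1 strain, and 34 genes (0.196%) were so on the higher side and 14 (0.0805%) on the lower side. With no minimum on the fold these were 191 (1.1%) and 161 (0.926%). All 48 were also called in females alone and in males alone. Their selection used the same libraries of both sexes and favours that outcome, so it is no separate support. Of the 48 genes, 32 were protein coding, 23 higher and 9 lower, and 20 had a mean under 1 CPM in the group where they were higher. Another description asks that all 8 NZO/HlLtJ libraries lie outside all 56 others, with no minimum on the fold. It held for 46 genes (0.265%) on the higher side and 22 (0.127%) on the lower side. Only 21 and 7 of these were also beyond each strain, so neither rule contains the other. The 8 genes described next were protein coding, beyond each strain, and at 2 CPM or more where they were higher.

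**Figure D1:**
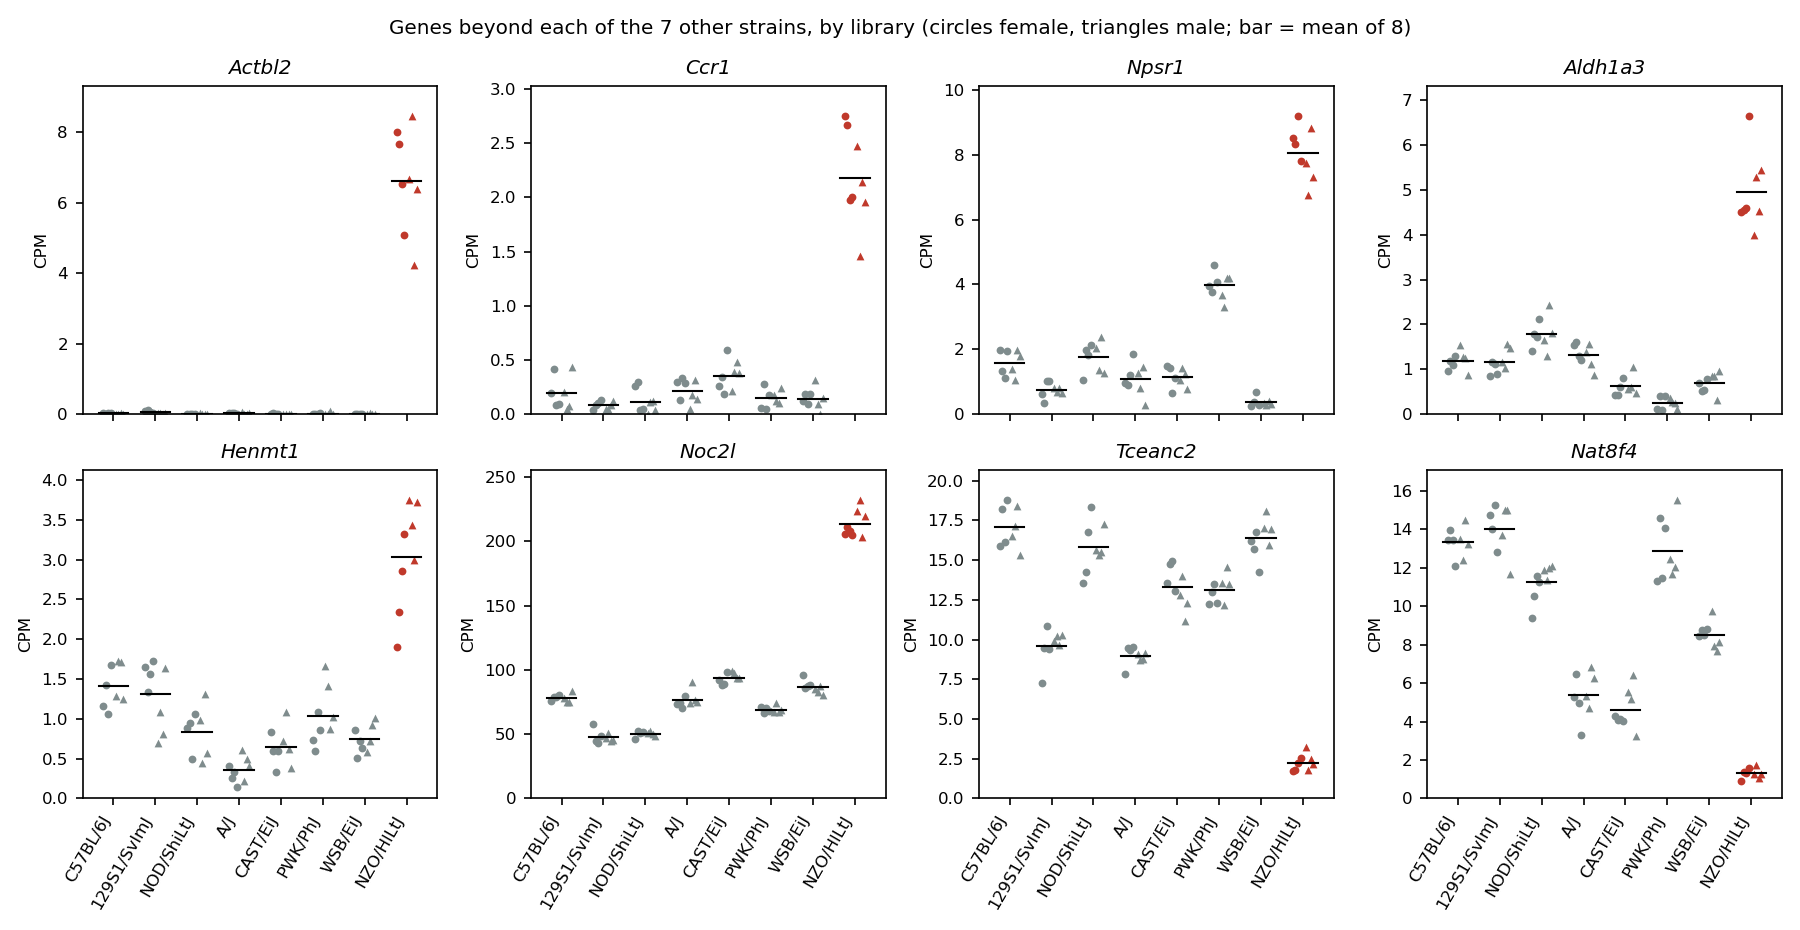
Level in CPM of 8 genes beyond each of the other strains, with 1 point per library (circles female, triangles male; NZO/HlLtJ in red) and a bar at the mean of each strain's 8 libraries. In each panel the 8 NZO/HlLtJ libraries lie outside the range of the 56 others: Npsr1 is at 6.76 to 9.20 CPM against at most 4.61, and Tceanc2 at 1.70 to 3.21 against at least 7.27.

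Actbl2, an actin-like gene on chromosome 13, was close to 0 in every other strain. It ranged over 5.08 to 8.0 CPM in NZO/HlLtJ females and 4.24 to 8.47 CPM in males, and no other library exceeded 0.129 CPM (log2 fold change 8.42, SE 0.168, adjusted p = 1.87e-38). In raw counts that was 1185 over the 8 NZO/HlLtJ libraries and 25 over the 56 others, and the fitted size depends on the prior count added to groups near 0. No other library held more than 3 counts. Actbl2 thus passed the filter on low counts through the NZO/HlLtJ libraries, where it was high, and its separation is no separate support. Because its sequence is close to that of other actins, reads could have been moved between them and the gene is uncertain. The abundant actin genes did not pass the test, with log2 fold changes of -0.09 for Actb (adjusted p = 0.189) and 0.00 for Actg1 (adjusted p = 0.991).

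A pair of receptor genes on chromosome 9 was among them. Npsr1 encodes the receptor of neuropeptide S, a peptide linked to arousal and anxiety. Its 8 NZO/HlLtJ values were 8.50, 8.33, 9.20 and 7.81 CPM in females and 7.74, 6.76, 8.81 and 7.30 CPM in males. The 56 other libraries had a lowest value of 0.248, a median of 1.23 and a highest value of 4.61 CPM, so the groups did not overlap. The nearest strain was PWK/PhJ at 3.97 CPM on average, and WSB/EiJ was lowest at 0.365. The log2 fold change was 2.74 (SE 0.111, adjusted p = 1.27e-28) against the mean of the strains and 1.02 against PWK/PhJ alone. The ligand gene Nps had 0 counts in all 8 NZO/HlLtJ libraries, which allows up to 3 counts in each, and averaged at most 0.0602 CPM in any other strain. Ccr1, a chemokine receptor of myeloid cells, was at 2.75, 2.67, 1.98 and 2.0 CPM in NZO/HlLtJ females and at 2.47, 1.46, 2.14 and 1.96 CPM in males. Elsewhere it reached at most 0.596 CPM (log2 fold change 3.71, SE 0.184, adjusted p = 1.44e-24).

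Aldh1a3 and Lrat both act on vitamin A. Aldh1a3 oxidises retinaldehyde to retinoic acid, and Lrat esterifies retinol for storage. Aldh1a3, on chromosome 7, was at 4.50, 4.56, 4.60 and 6.65 CPM in NZO/HlLtJ females and at 3.99, 5.29, 4.52 and 5.44 CPM in males, against a highest value of 2.43 CPM elsewhere. Its log2 fold change was 2.51 (SE 0.104, adjusted p = 3.78e-28). Lrat, on chromosome 3, was low but did not overlap, at 0.606 to 1.40 CPM in NZO/HlLtJ and at most 0.392 CPM in the others (2.81, SE 0.176, adjusted p = 5.11e-20). It passed the filter on low counts through the NZO/HlLtJ libraries, where it was high, so its separation is no separate support. Of 24 tested genes of retinoic acid synthesis and signalling, 10 were higher and 4 lower at any fold, with a median log2 fold change of 0.182, against 21.8% and 16.2% of all genes tested. The 4 that fell were Cyp26b1, which degrades retinoic acid (-0.83, 8.99 ± 2.17 against 16.2 ± 3.69 CPM), and the receptors Rxrg (-0.74), Rara (-0.45) and Rxrb (-0.17). The other synthetic enzymes did not follow Aldh1a3 alike. Aldh1a2 was higher (0.84, adjusted p = 0.00652), a gene of meningeal fibroblasts that is counted again with their markers below, and Aldh1a1 did not pass (-0.14, adjusted p = 0.0600).

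Henmt1 and Noc2l were higher at different levels. Henmt1, a methyltransferase of small RNAs on chromosome 3, was at 1.90, 2.34, 2.85 and 3.32 CPM in NZO/HlLtJ females and at 3.75, 3.43, 2.99 and 3.72 CPM in males, above the 1.73 CPM of the highest other library (log2 fold change 1.86, SE 0.125, adjusted p = 1.21e-18). Noc2l, a nucleolar protein that represses histone acetylation, was at 204 to 232 CPM in the 8 NZO/HlLtJ libraries and at 42.9 to 99.3 CPM in the 56 others. The rise of Noc2l was 1.61 on the log2 scale (SE 0.0279, adjusted p = 5.42e-47), and 1.18 against the nearest strain, CAST/EiJ. Samd11, a gene next to Noc2l on chromosome 4, moved the other way, at 1.38 ± 0.451 against 4.77 ± 2.83 CPM (-1.43, adjusted p = 7.5e-15). Whether strand was used in the counting is not given in the sources used here, so reads of overlapping neighbours cannot be separated.

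On the lower side stood Tceanc2 and Nat8f4. Tceanc2, which shares a domain with a transcription elongation factor, was at 1.70, 1.76, 2.25 and 2.52 CPM in NZO/HlLtJ females and at 3.21, 1.76, 2.5 and 2.15 CPM in males. The lowest of the 56 other libraries was at 7.27 and their median at 13.6 CPM (log2 fold change -2.54, SE 0.0721, adjusted p = 3.01e-36). Its overlapping neighbour on chromosome 4, Tmem59, did not pass (0.07, adjusted p = 0.0910). Nat8f4 belongs to a cluster of related acetyltransferase genes on chromosome 6 whose reads can be exchanged. It was at 0.901 to 1.76 CPM in NZO/HlLtJ and at 3.25 to 15.5 CPM elsewhere (-2.79, SE 0.0999, adjusted p = 3.32e-31). Within the cluster, Nat8f2 was lower as well (-3.12), Nat8f3 (0.44) and Nat8f5 (0.81) were higher, and Nat8f1 (-0.10, adjusted p = 0.233) and Nat8f7 (-0.35, adjusted p = 0.143) did not pass.

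Several metabolic enzymes were low or high in NZO/HlLtJ without meeting the minimum fold against every strain. Pccb, the beta subunit of the mitochondrial propionyl-CoA carboxylase that acts in the breakdown of branched-chain amino acids, was at 23.9, 22.3, 22.8 and 24.2 CPM in females and at 22.4, 23.6, 24.4 and 22.8 CPM in males. All 56 other libraries were higher, from 26.1 to 77.4 CPM. The fold was set by strain: Pccb averaged 27.6 CPM in PWK/PhJ, 43.1 in CAST/EiJ and 57.6 to 63.3 in the other strains (-1.15 against their mean, SE 0.0364, adjusted p = 9.44e-34). Pcca, which encodes the alpha subunit of the same enzyme, was only slightly lower, at 24.4 ± 2.14 against 26.7 ± 2.39 CPM (-0.13, adjusted p = 0.0193). Of the 29 tested genes of branched-chain amino acid and propionate breakdown, 9 were higher and 9 lower at any fold (21.8% and 16.2% of all genes tested were), with a median of 0.0343, and Pccb had the largest change.

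Glutathione transferases of the mu class, which lie together on chromosome 3, moved in both directions. Gstm5, a form found in brain and testis, was at 37.0, 36.4, 40.5 and 43.5 CPM in NZO/HlLtJ females and at 44.3, 50.1, 43.8 and 47.9 CPM in males, below the 56.4 CPM of the lowest other library (-1.46, SE 0.0534, adjusted p = 8.39e-31). Gstm6 was lower at 3.27 ± 0.568 against 7.19 ± 2.75 CPM (-1.03). Gstm7 was higher at 88.9 ± 9.59 against 53.0 ± 50.5 CPM (1.19), though CAST/EiJ, at 163 CPM, exceeded NZO/HlLtJ and PWK/PhJ was at 80.9. Gstm1 was higher (0.28), Gstm4 was higher at 19.8 ± 1.37 against 10.05 ± 1.23 CPM with no overlap (0.99), and Gstm2 did not pass (-0.10, adjusted p = 0.739). Reads can be exchanged between these near-identical genes, so they are uncertain. Mgst1, a microsomal transferase elsewhere in the genome, was at 9.06 to 12.3 CPM against at most 8.92 (1.01, adjusted p = 1.03e-15). Of 43 tested genes of glutathione and detoxification, 11 were higher and 13 lower, against the same shares of all genes, with a median of -0.0102.

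Interferon-stimulated genes are switched on by type I and type II interferon signalling and restrict viruses and intracellular bacteria. Of 44 tested members, 29 were higher in NZO/HlLtJ and 4 lower at any fold (21.8% and 16.2% of all genes tested were), with a median of 0.425. Among those that averaged 50 counts or more per library, 11 were higher and the median was 0.187. Fewer members remain at this filter, and the share of all genes at any fold was not computed there. The 11 is therefore not to be set against the 29. The 7 called with the fold minimum were Trim30d, Ifi27l2a, Iigp1, Gbp6, Oas2, Oas1c and Rsad2. The 4 that fell were Xaf1 (-0.69), Ifi203 (-0.40), Stat2 (-0.31) and Ifit2 (-0.23). The levels were low: Rsad2, the antiviral protein viperin, averaged 1.69 ± 0.286 against 0.888 ± 0.438 CPM, and Gbp6, a guanylate-binding GTPase, 2.79 ± 0.690 against 1.27 ± 0.698.

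NZO/HlLtJ was not the highest strain for these genes. Against C57BL/6J alone, 1 of the 44 was higher and 11 lower (15.2% and 13.9% of all genes tested in that comparison), and the summed CPM of the list averaged 209 in NZO/HlLtJ and 233 in C57BL/6J. Against PWK/PhJ, 30 were higher and 5 lower (28.3% and 25.8% of all genes), against 129S1/SvImJ 27 and 5 (15.2% and 13.1%), and against CAST/EiJ 27 and 6 (28% and 25.3%). Against A/J the counts were 20 and 2 (14.2% and 12.8%), against NOD/ShiLtJ 18 and 3 (13.7% and 12.6%), and against WSB/EiJ 18 and 3 (20% and 18%). Single strains also weighed on the 7 called genes. Oas1c was at 0.0313 CPM in PWK/PhJ, and without that strain its log2 fold change fell from 1.16 to 0.56. Without PWK/PhJ the value of Rsad2 was 0.84 in place of 1.06. Iigp1 was at 0.00534 CPM in CAST/EiJ, and without it the log2 fold change was 0.72 in place of 1.69. Trim30d was at 1.35 to 1.98 CPM in NZO/HlLtJ, at 1.49 in C57BL/6J, 2.03 in NOD/ShiLtJ and 0.905 in PWK/PhJ, and at no more than 0.0379 CPM on average in the other strains (3.38, adjusted p = 5.6e-23). Ifi27l2a, at 0.552 to 1.48 CPM against a highest value of 1.03, passed against 6 of the 7 strains and did not pass against CAST/EiJ (0.68, adjusted p = 0.0551).

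Interferon acts on many of these genes through an element in the promoter. The 250 bases before the annotated start of each gene were read from RefSeq's table for the C57BL/6J reference, build GRCm38.p6, and searched on both strands for an interferon response core, GAAA followed after any 2 bases by another GAAA (TTTC, 2 bases and TTTC where it lies on the other strand, as in all matches printed here). NZO/HlLtJ sequence was not analysed here. A match was found in 3.46% of 27025 promoters and in 23 of the 38 list members with a window (60.5%), among them 13 of the 20 that were higher in NZO/HlLtJ and 10 of the other 18. The 3 genes of the 7 called that have a window are printed because all 3 hold the core, shown in capitals: Oas1c at chr5:120812515-120812764, Trim30d at chr7:104507850-104508099 and Rsad2 at chr12:26456453-26456702, each from the minus strand, 5′ to 3′, and ending at the base before the start.
Oas1c: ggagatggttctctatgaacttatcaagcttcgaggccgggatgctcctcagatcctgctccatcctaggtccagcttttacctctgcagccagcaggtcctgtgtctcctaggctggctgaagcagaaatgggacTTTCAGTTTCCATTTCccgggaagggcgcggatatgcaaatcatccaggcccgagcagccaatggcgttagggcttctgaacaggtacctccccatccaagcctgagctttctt
Trim30d: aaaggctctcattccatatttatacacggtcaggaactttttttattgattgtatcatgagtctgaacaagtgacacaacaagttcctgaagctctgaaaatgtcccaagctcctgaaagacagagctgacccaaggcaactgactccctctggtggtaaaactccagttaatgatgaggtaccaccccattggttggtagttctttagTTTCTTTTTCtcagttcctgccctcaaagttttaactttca
Rsad2: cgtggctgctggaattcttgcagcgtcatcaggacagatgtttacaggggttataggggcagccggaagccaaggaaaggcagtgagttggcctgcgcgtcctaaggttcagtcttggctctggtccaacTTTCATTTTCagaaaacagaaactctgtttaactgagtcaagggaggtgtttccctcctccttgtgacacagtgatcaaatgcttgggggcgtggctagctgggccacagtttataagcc
In Oas1c 2 matches overlap, beginning 114 and 108 bases before the start, while the single match begins 41 bases before the start in Trim30d and 120 in Rsad2. A match describes the letters of the reference and is no measurement of binding.

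MHC class II genes, which present extracellular peptides on antigen-presenting cells, were counted next. Of 11 tested, 6 were higher and 1 lower (21.8% and 16.2% of all genes tested were), with a median of 0.497. That median was 0.119 in females and 0.737 in males. It was 0.0772 without CAST/EiJ and 0.274 without NOD/ShiLtJ. Among its better counted members (50 counts or more on average), which are fewer, it was 1.01 and 2 were higher. Against C57BL/6J alone, 1 of the 11 was higher and 1 lower (15.2% and 13.9% of all genes). The summed CPM of the list was 37.5, 49.5, 33.3 and 39.5 in NZO/HlLtJ females and 37.8, 49.3, 41.7 and 35.9 in males, against 15.3 to 36.5 in the 56 others, so the lowest NZO/HlLtJ libraries fell within the range of the others. Cd74, the invariant chain, was at 6.74 ± 3.08 against 3.06 ± 1.90 CPM (1.27, adjusted p = 1.22e-05), H2-Eb1 at 2.43 ± 0.910 against 1.01 ± 0.810 (1.56, adjusted p = 2.73e-07) and H2-Aa at 2.12 ± 0.883 against 1.05 ± 0.735 (1.19, adjusted p = 0.000205). H2-Oa was the member that fell (-0.83, adjusted p = 0.0471). Among 25 tested genes of MHC class I and peptide loading, 13 were higher and 1, H2-K1 (-0.33), lower (against 21.8% and 16.2% of all genes), with a median of 0.262. Against C57BL/6J alone 2 of the 25 were higher and 4 lower, while against PWK/PhJ 16 were higher and 4 lower (28.3% and 25.8% of all genes). Without CAST/EiJ and PWK/PhJ the median was 0.148. H2-D1 was at 37.6 ± 3.83 against 24.96 ± 11.3 CPM (0.84). The H2 genes are polymorphic and closely related, and reads of other haplotypes can be lost or moved, so each is uncertain.

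**Figure D2:**
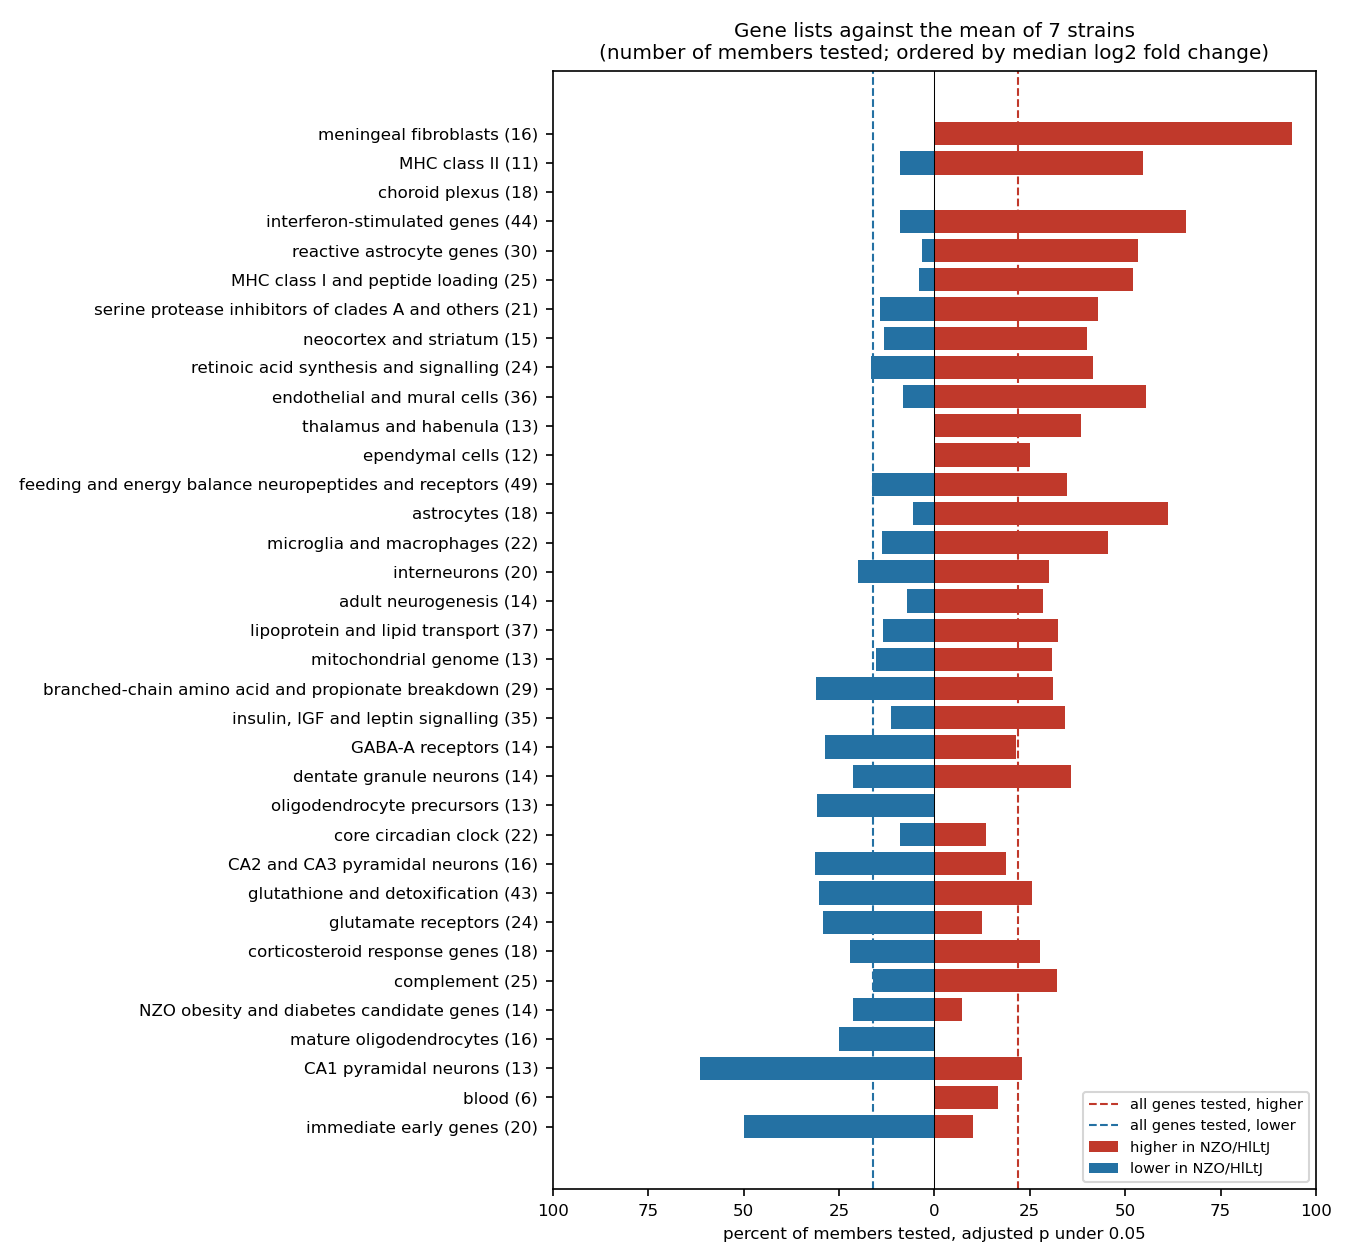
Share of each gene list's tested members that were higher (red, right) or lower (blue, left) in NZO/HlLtJ against the mean of the other strains at adjusted p under 0.05 and any fold, with the number tested in parentheses. Dashed lines mark the 21.8% and 16.2% of all genes tested. Lists are ordered by median log2 fold change, from 0.735 for meningeal fibroblasts at the top to -0.283 for immediate early genes at the bottom.

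Markers of tissue around the hippocampus were counted as well. Meningeal fibroblasts are the collagen-producing cells of the brain's coverings. Of their 16 markers, 15 were higher in NZO/HlLtJ and none lower (21.8% and 16.2% of all genes tested were), with a median of 0.735. Only Bmp6 did not pass (0.24, adjusted p = 0.226). Their summed level was 648, 893, 450 and 880 CPM in the 4 females and 1018.1, 1293, 1212 and 661 CPM in the 4 males, against 177 to 1193 CPM in the other libraries. In females alone 5 were higher (median 0.341, where 14.6% of all genes were higher and 9.98% lower) and in males 14 (median 0.999, where 15% were higher and 9.56% lower), and the difference between the sexes was not tested for the list. Without females 2 and 4, which were the richest of the strain in choroid plexus markers, 5 of the 16 were higher, while the median was 0.589. Choroid plexus markers themselves ranged over 225 to 5883 summed CPM in NZO/HlLtJ and 144 to 7120 in the others, and 0 of 18 passed in either direction with both sexes together. In females alone 5 of the 18 were higher (median 1.58) and in males 0 (median -0.705), against the shares of all genes given above for each sex. Endothelial and mural markers were higher for 20 and lower for 3 of 36 (21.8% and 16.2% of all genes tested were). Their median was 0.181, and 0.0911 with the meningeal covariate described next.

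**Figure D3:**
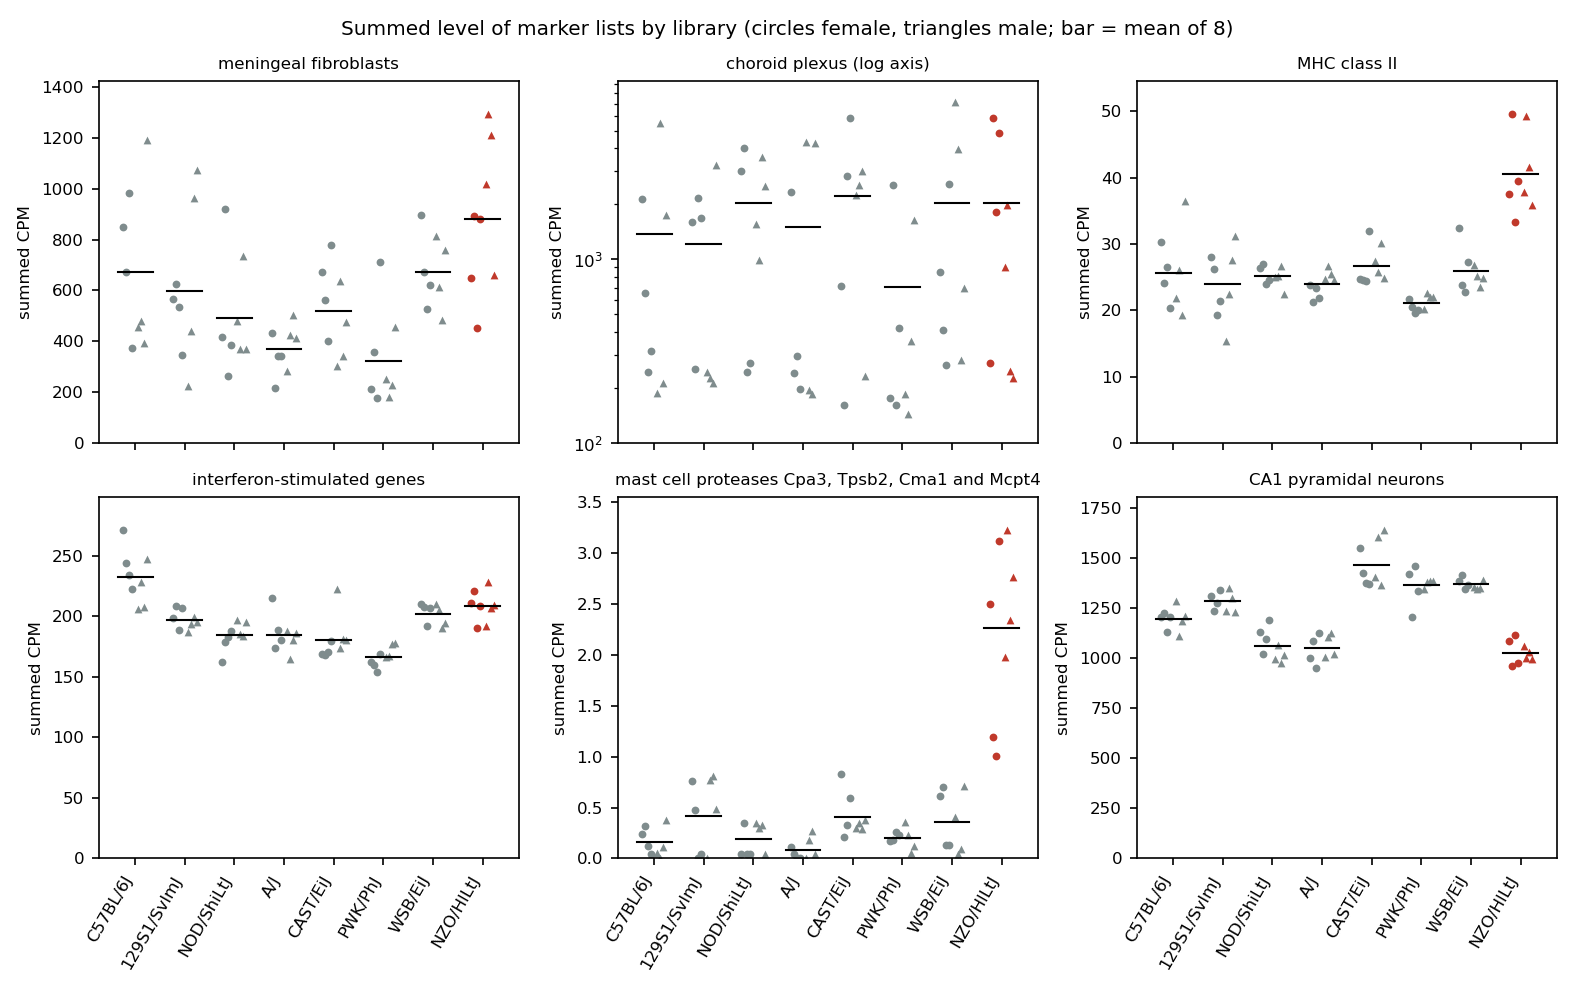
Summed CPM of marker lists in each library (circles female, triangles male; bar at the mean of 8; NZO/HlLtJ in red; choroid plexus on a log axis). Meningeal fibroblast markers of NZO/HlLtJ span 450 to 1293 CPM within and above the 177 to 1193 CPM of the others, and CA1 markers lie at the low end together with those of A/J and NOD/ShiLtJ. The 4 mast cell proteases lie above all other libraries, but they were chosen for being high in NZO/HlLtJ, so this is no separate support. The whole mast cell list, which includes Kit and is not drawn, spans 116 to 153 CPM against 85.7 to 200 CPM.

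The meningeal markers were entered as a covariate to see which calls moved with them, a setting chosen after the data were seen. With it, 532 of the 634 genes called against the mean and 41 of the 48 beyond each strain were still called. The calls of Cd74 (log2 fold change 0.40, adjusted p = 0.0976), H2-Aa (0.28, adjusted p = 0.390) and Slc47a1, a cation exporter that is itself a meningeal marker (0.13, adjusted p = 0.777), were lost. The count of interferon-stimulated genes higher in NZO/HlLtJ went from 29 to 18, and their median from 0.425 to 0.330. For MHC class II the count went from 6 to 3 and the median from 0.497 to 0.281. The share of all genes at any fold was not computed with the covariate, so these counts have no background beside them. The meninges' part in these differences was not tested beyond this setting.

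Transcripts of mast cells, which live in the meninges and around vessels and store proteases in granules, formed another list, chosen after its values had been seen. Of its 15 genes 9 passed the filter on low counts, and no count of calls is drawn from them. The protease genes Cpa3, Tpsb2, Cma1 and Mcpt4 were all among the 34 genes beyond each strain on the higher side. Their summed level was 2.5, 1.19, 1.01 and 3.12 CPM in NZO/HlLtJ females and 1.98, 3.23, 2.34 and 2.77 CPM in males, and the highest of the 56 other libraries was at 0.834. Each gene taken alone overlapped with the others. None of the 4 exceeded 0.451 CPM in any other library, so that they passed the filter through the NZO/HlLtJ libraries, where they were high. In raw counts the 8 NZO/HlLtJ libraries held 124 of Cpa3, 111 of Tpsb2, 80 of Cma1 and 92 of Mcpt4, and the 56 others together held 97, 74, 79 and 75. The log2 fold changes were 3.55, 3.40, 2.96 and 3.51. The receptor genes Ms4a2 and Fcer1a were near 0, with 8 counts and 1 over the 8 libraries and 12 and 2 over the 56 others. Counts were also few for Mrgprb1 (17 in NZO/HlLtJ and 10 in the others), Mrgprb2 (7 and 1), Tpsab1 (8 and 26) and Cd200r3 (6 and 31). Members that other cells express too were well above 0 in all strains: Gata2 was at 5.01 ± 0.755 against 3.74 ± 0.720 CPM, Srgn at 4.71 ± 0.720 against 3.73 ± 0.721, Hpgds at 4.49 ± 0.703 against 3.77 ± 1.3 and Hdc at 2.86 ± 0.83 against 2.66 ± 0.872. Kit, which hippocampal neurons also express, did not pass (-0.06, adjusted p = 0.275).

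Reactive astrocyte genes, which astrocytes switch on after injury or inflammation, were mostly higher or did not pass. Of 30 tested, 16 were higher and 1 lower (21.8% and 16.2% of all genes tested were), with a median of 0.345. Serpina3n, a secreted protease inhibitor often used as the marker of this state, was the one that fell. It was at 38.5, 44.7, 37.1 and 40.7 CPM in NZO/HlLtJ females and at 40.6, 43.9, 37.2 and 41.7 CPM in males, and all 56 others lay above, from 46.3 to 316 CPM. The strains nearest to it were A/J at 51.6 and C57BL/6J at 55.3 CPM, and 129S1/SvImJ was farthest at 284 (-1.42, SE 0.0436, adjusted p = 2.15e-34). C4b, complement component C4, was at 72.8 to 97.4 CPM in NZO/HlLtJ and at 9.62 to 78.9 CPM in the others, and it was higher against each of the 7 strains at any fold (1.20, adjusted p = 4.22e-27). Aspg, an asparaginase, averaged 4.86 ± 1.40 against 1.91 ± 1.04 CPM (1.53), and the cytokine gene Clcf1 0.702 ± 0.202 against 0.323 ± 0.137 CPM (1.11). The canonical marker Gfap was higher by 0.20. With the meningeal covariate the median of the list was 0.0878 and the count of higher members 12, a setting without a computed share of all genes.

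Other protease inhibitor and complement genes were variable among strains. Serpina3i and Serpina1b were near 0 in NZO/HlLtJ, at 0.0679 ± 0.0693 and 0.0487 ± 0.0709 CPM, but C57BL/6J and A/J were near 0 for both as well. The Serpina1b difference was -1.93 (adjusted p = 0.00735) against the mean, and the gene passed against 5 of the strains, with NOD/ShiLtJ (-4.95) and 129S1/SvImJ (-3.26) farthest. Without NOD/ShiLtJ it was -1.43 (adjusted p = 0.0641), and without CAST/EiJ and PWK/PhJ -1.72 (adjusted p = 0.0605). Both genes belong to families of close copies and are uncertain. Masp2, a protease of the lectin pathway of complement, was at 0.0622 ± 0.0381 against 1.42 ± 0.871 CPM and beyond each strain (-4.07, adjusted p = 5.89e-17). C57BL/6J, at 0.145 CPM, was nearest to it (-1.24, adjusted p = 0.0480). Of 25 complement genes, 8 were higher and 4 lower (21.8% and 16.2% of all genes were), with a median of -0.0366.

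Genes of neurons differed in places. Markers of CA1 pyramidal neurons, the output cells of the hippocampus, were lower for 8 and higher for 3 of 13 (16.2% and 21.8% of all genes were). Their median was -0.189, and it was -0.327 without 129S1/SvImJ and -0.136 without CAST/EiJ and PWK/PhJ. Their summed level was 962 to 1115 CPM in NZO/HlLtJ. A/J (950.97 to 1127 CPM) and NOD/ShiLtJ (975 to 1190) were as low, C57BL/6J was at 1109 to 1284, and the highest other library, in CAST/EiJ, was at 1639. Against A/J alone 2 of the 13 were lower and 1 higher (12.8% and 14.2% of all genes). Wfs1, an endoplasmic reticulum protein whose loss causes a syndrome with diabetes in people, was at 151, 116, 154 and 117 CPM in NZO/HlLtJ females and at 135, 138, 87.6 and 126 CPM in males, against 131 to 622 CPM elsewhere (-1.0, SE 0.0774, adjusted p = 5.33e-16). C57BL/6J overlapped with it at 144 ± 11.1 CPM (-0.17, adjusted p = 0.177). Lefty1, an inhibitor of nodal signalling, was at 0 in 3 of the 8 NZO/HlLtJ libraries and at most at 0.138 CPM in the rest. A/J (0.0622 CPM) and PWK/PhJ (0.225) were also near 0, while the other strains averaged 3.25 to 14.9 CPM (-5.61, adjusted p = 2.73e-12). Crym, a thyroid hormone binding protein, was higher at 198 ± 14.2 against 165 ± 77.3 CPM (0.80), with NOD/ShiLtJ at 5.65 and C57BL/6J at 234. Immediate early genes, which report recent neuronal activity, were lower for 10 and higher for 2 of 20 (16.2% and 21.8% of all genes were) with a median of -0.283, for instance Fos (-0.60, adjusted p = 0.0465) and Egr1 (-0.49, adjusted p = 0.00306). By strain, 15 of the 20 were lower against CAST/EiJ (25.3% of all genes were), 15 against WSB/EiJ (18%), 8 against PWK/PhJ (25.8%) and 6 against 129S1/SvImJ (13.1%). Against C57BL/6J 3 were lower (13.9%), and against NOD/ShiLtJ and A/J 2 each (12.6% and 12.8%). By sex, 3 of the 20 were lower in females, where 9.98% of all genes were, and 6 in males, where 9.56% were.

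The genes for which the strain is studied elsewhere in the body were read next. Of 35 genes of insulin, IGF and leptin signalling, 12 were higher and 4 lower (21.8% and 16.2% of all genes were), with a median of 0.0325. The insulin receptor gene Insr was at 53.8 ± 3.14 against 47.8 ± 8.67 CPM (0.19, adjusted p = 0.00187), and without CAST/EiJ its value was 0.11 (adjusted p = 0.104), and without CAST/EiJ and PWK/PhJ 0.10 (adjusted p = 0.219). Irs4, an insulin receptor substrate, was at 1.06 to 3.92 CPM in NZO/HlLtJ and overlapped widely with the others, which reached 12.7 CPM (1.39, adjusted p = 0.00488). The leptin receptor gene Lepr was at 3.35, 7.68, 3.22 and 7.25 CPM in NZO/HlLtJ females and at 5.27, 6.35, 4.48 and 3.01 CPM in males, against 0.468 to 6.91 CPM elsewhere (0.80, adjusted p = 0.0103). The highest values of Lepr fell in females 2 and 4. Without these libraries the log2 fold change was 0.44 (adjusted p = 0.336), and with the meningeal covariate 0.14 (adjusted p = 0.757). Among 14 tested candidate genes for the strain's obesity and diabetes, 1 was higher and 3 lower (21.8% and 16.2% of all genes were), and the other 10 did not pass. Lepr was the higher one, and Lefty1, Ifi203 and Tbc1d1 (-0.12) were the lower ones.

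Neuropeptides and receptors of feeding were higher for 17 and lower for 8 of 49 (21.8% and 16.2% of all genes were), with a median of 0.163, and besides Npsr1 a pair of them was called. Calcr, which binds calcitonin and, with its partners, amylin, was at 0.247 to 1.08 CPM in NZO/HlLtJ. The other libraries had a median of 0.0470 and a highest value of 4.11 CPM, and A/J averaged 0.955 (1.87, SE 0.553, adjusted p = 0.00565). Glp2r, the receptor of a gut peptide that slows feeding, was at 0.657 to 1.41 CPM, close to 129S1/SvImJ (0.565) and A/J (0.683) and below the other strains, with NOD/ShiLtJ highest at 10.8 CPM (-1.24, adjusted p = 2.54e-10). The interneuron peptide Vip was higher at 27.3 ± 3.28 against 16.6 ± 3.49 CPM (0.73). Of 37 genes of lipoprotein and lipid transport, 12 were higher and 5 lower, against the same shares. Mttp, which loads lipid onto apolipoprotein B, was called at 18.4 ± 0.811 against 11.7 ± 6.30 CPM (1.13), yet PWK/PhJ (0.848 CPM) and CAST/EiJ (4.34) set that value, and without both it was 0.27.

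**Figure D4:**
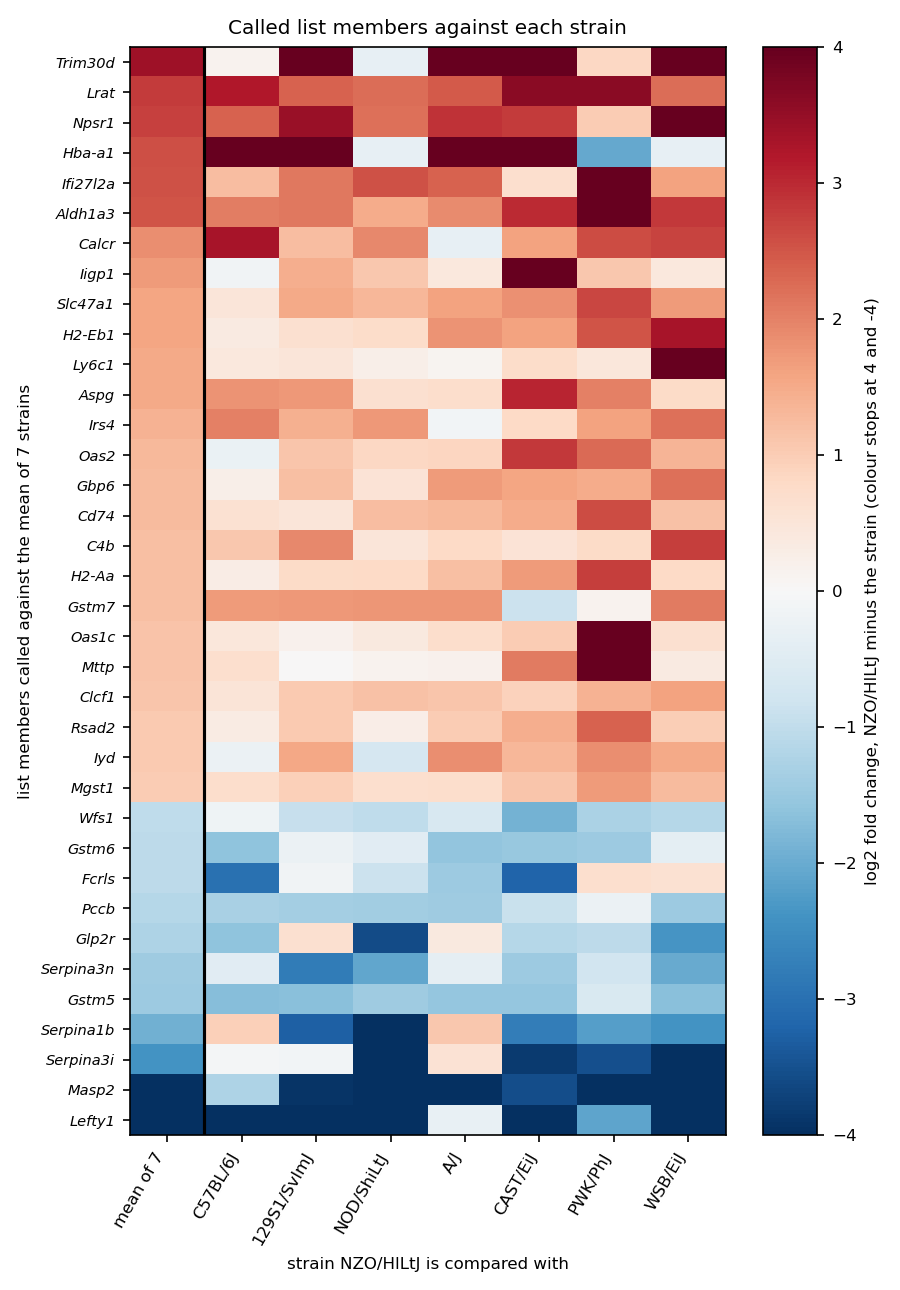
Log2 fold change of the 36 list members called against the mean of the other strains, in the first column against that mean and in the others against 1 strain each (red higher in NZO/HlLtJ, blue lower; colour stops at 4 and -4). Npsr1, Aldh1a3 and Lrat are above 0 in every column and were called against all 7 strains. Ly6c1, Mttp and Oas1c are also above 0 in every column but were called against 1, 2 and 2 strains. Ly6c1 is at the end of the scale against WSB/EiJ, as Npsr1 is, and Mttp and Oas1c are against PWK/PhJ.

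The plot of list members by strain shows how often a call rested on particular strains. Ly6c1, an endothelial surface protein, was at 29.8 ± 2.56 CPM in NZO/HlLtJ and at 17.8 to 27.5 CPM on average in 6 strains, but at 0.103 CPM in WSB/EiJ, and without WSB/EiJ its log2 fold change was 0.41 in place of 1.53. Hba-a1, an alpha globin gene, had nearly the same mean in NZO/HlLtJ and in the others (18.2 and 17.7 CPM), and its log2 fold change of 2.58 came from averaging strains on the log scale, since 4 strains averaged at most 0.969 CPM and PWK/PhJ 75.9. Hba-a1 shares its coding sequence closely with Hba-a2, which did not pass (-0.25, adjusted p = 0.291), and is uncertain. Fcrls, a microglial receptor-like gene, was lower at 3.24 ± 0.400 CPM against 29.9 in CAST/EiJ and 25.8 in C57BL/6J, but PWK/PhJ (2.0) and WSB/EiJ (2.10) were lower still.

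Markers of the other cell types and regions were counted in the same way, against the 21.8% higher and 16.2% lower of all genes, and no test compares the lists. Astrocyte markers were higher for 11 and lower for 1 of 18 (median 0.127), those of microglia and macrophages for 10 and 3 of 22 (0.108), thalamus and habenula for 5 and 0 of 13 (0.180), and neocortex and striatum for 6 and 2 of 15 (0.183). Mature oligodendrocyte markers were higher for 0 and lower for 4 of 16 (-0.137), and those of their precursors for 0 and 4 of 13 (0.01). The counts were 5 and 3 of 14 for dentate granule neurons, 3 and 5 of 16 for CA2 and CA3, 6 and 4 of 20 for interneurons, 4 and 1 of 14 for adult neurogenesis, 3 and 0 of 12 for ependymal cells and 1 and 0 of 6 for blood. Genes of glutamate receptors (3 higher and 7 lower of 24), GABA-A receptors (3 and 4 of 14), the corticosteroid response (5 and 4 of 18), the circadian clock (3 and 2 of 22), the mitochondrial genome (4 and 2 of 13) and protease inhibitors (9 and 3 of 21) moved in both directions.

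Set against 1 strain at a time, NZO/HlLtJ had 455 higher (2.62%) and 324 lower calls (1.86%) against C57BL/6J and 462 (2.66%) and 280 (1.61%) against 129S1/SvImJ. The counts were 380 (2.19%) and 347 (2%) against NOD/ShiLtJ, and 471 (2.71%) and 301 (1.73%) against A/J. Against the wild-derived strains they were larger, at 1283 (7.38%) and 705 (4.06%) for CAST/EiJ, 1378 (7.93%) and 647 (3.72%) for PWK/PhJ and 713 (4.10%) and 388 (2.23%) for WSB/EiJ. All 7 comparisons use the same NZO/HlLtJ libraries. In each of them the higher calls outnumbered the lower ones.

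Females and males were also compared apart, with no library in common. In females 514 genes (2.96%) were called higher and 167 (0.961%) lower than the mean of the females of the other strains, and in males 525 (3.02%) and 171 (0.984%). A total of 439 genes was called in both sexes, 64.5% of the 681 called in females and 63.1% of the 696 called in males, and none was called in opposite directions. Of the 242 genes called in females and not in males, 189 had the same sign in males, as did 241 of the 257 called in males and not in females. The test of the difference itself, an interaction of NZO/HlLtJ and sex, called 0 genes in edgeR and in DESeq2, with a smallest adjusted p of 0.917 in edgeR, and 5.29% of genes had an unadjusted p under 0.05. Choroid plexus markers had a median log2 fold change of 1.58 in the comparison of females and -0.705 in that of males. Their part in the genes called in 1 sex only was not tested.

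**Figure D5:**
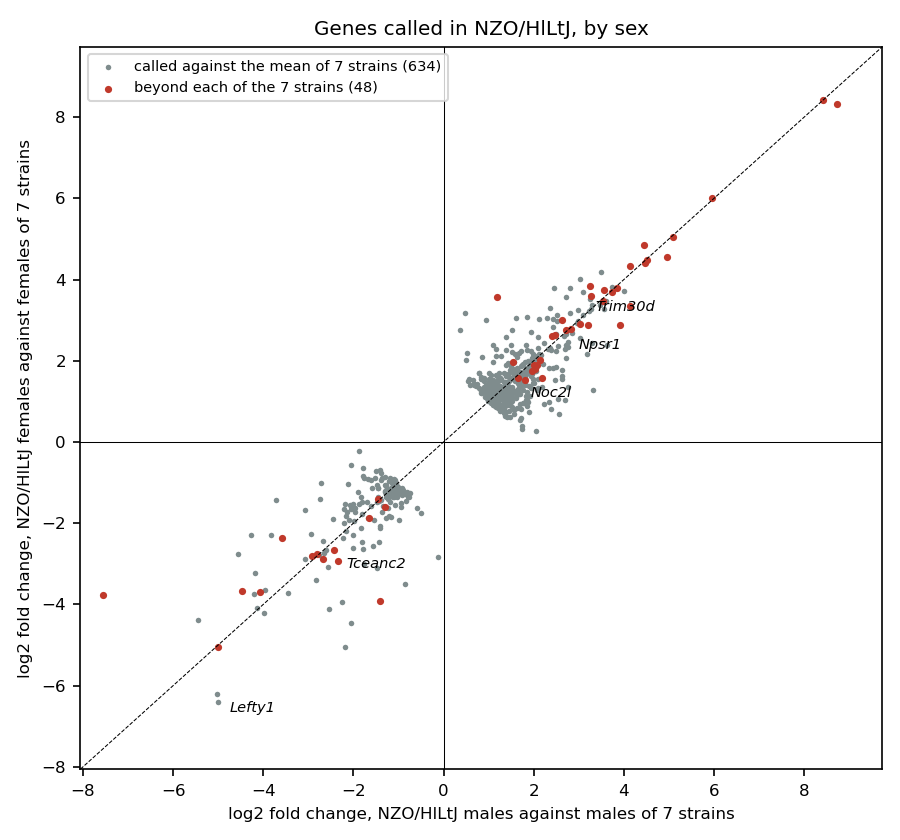
Log2 fold change in NZO/HlLtJ males (horizontal) and females (vertical) for the 634 genes called against the mean of the other strains (grey) and the 48 beyond each strain (red); the dashed line marks equal values. All 48, which were selected from these same libraries, have the same sign in both sexes, among them Npsr1 (2.72 in males and 2.75 in females) and Tceanc2 (-2.44 and -2.65).

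Within NZO/HlLtJ, females and males differed in 10 genes (0.0575%), all on the sex chromosomes. Xist, which silences an X chromosome in females, was at 481.5 CPM in females and 0.928 in males. The genes Eif2s3x, Kdm5c and Kdm6a, which escape that silencing, were each higher in females by 0.52 on the log2 scale. The Y-linked genes Kdm5d, Uty, Ddx3y, Eif2s3y, Uba1y and Gm29650 were higher in males. Of the autosomal genes 0 passed in edgeR, where 5.39% had an unadjusted p under 0.05.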

How the data were processed

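The authors deposited 1 table of raw read counts per gene for all 64 libraries. Per the labels' protocols, total RNA was extracted with on-column DNase treatment and made into TruSeq libraries. Per the submitters' processing notes the build is GRCm39, and the table's header gives Ensembl release 105. The aligner, counter, use of strand and any alignment to strain genomes are not given in the sources used here. Reads that differ from the reference may go uncounted, more so in some strains. Gene names were matched for 32146 of 32227 IDs (99.7%), and unmatched IDs held 0.0382% of counts. Libraries were grouped by labelled strain and sex.

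The counts were analysed in R 4.3.3 with edgeR 4.0.16: filterByExpr (minimum count 10, minimum total 15) kept 17382 genes (53.9%), followed by TMM scaling and a quasi-likelihood fit of 16 group means (48 residual degrees of freedom, prior count 0.125). NZO/HlLtJ was contrasted with the equally weighted mean of 7 strains, with each strain, within each sex, and in an interaction with sex, with Benjamini-Hochberg adjustment over all genes tested. CPM values use TMM-scaled library sizes and are not compared between genes. An upper limit for a value of 0 is 3 counts and covers counting error only. The procedure was tested on simulated data. DESeq2 1.42.0, other scalings, filters, covariates and left-out libraries and strains were alternatives.

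The genes named were those protein coding, beyond each strain and at 2 CPM or more, the list members called against the mean, genes that an earlier account named, tissue markers, and paralogs or neighbours of these. Others were chosen after their values were seen. Some genes that meet the rule, or are related to one that does, are not reported here. The members and lists were chosen with earlier results of these data known. Promoters came from RefSeq's table.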

Additional observations from a re-analysis of the deposited data

Results flagged for a closer look

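In each sex of NZO/HlLtJ, the gap between the highest or lowest of the 4 libraries and its nearest neighbour was divided by the range of the 4. It was unusually large in 7 of 106 sets of 4 values, and chance alone gives about 1 in 20. In females, Aldh1a3 had a ratio of 0.955 because female 4, at 6.65 CPM, stood above the others, and Gbp6 had 0.952, with female 1 at 3.30 CPM. Lefty1 (1) had 1 female library with counts and 3 at 0, and Serpina1b in females also had a ratio of 1. In males, Glp2r had a ratio of 0.918, and Lrat had 0.840, with male 3 lowest at 0.606 CPM. The summed level of the mast cell list, which includes the neuronal gene Kit, had a ratio of 0.886 in females.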

How the results depend on the processing

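Of 47 genes named by rule, 46 passed at adjusted p under 0.05. Of 1104 recomputed values, strain omissions included, 1091 kept their side of that threshold and 13 lost significance in 8 genes. Among genes or values that passed, 0 reversed direction. A change of sign where neither value passed was not counted, as for Prox1 (0.0116, and -0.0285 without CAST/EiJ). The fold minimum was not part of this count. Some called genes fell under it while their adjusted p stayed under 0.05, such as Ly6c1 without WSB/EiJ (0.41) and Mttp without CAST/EiJ and PWK/PhJ (0.27). Of the 634 genes called, 622 were kept in DESeq2 and 399 of the 611 still tested without CAST/EiJ and PWK/PhJ. Of the 48 beyond each strain, 44 were kept in DESeq2 and 47 without CAST/EiJ and PWK/PhJ. The 47 is no separate support, because these genes had already been called against each of the remaining strains. It is therefore not to be set against the 399. Calcr lost its call in DESeq2 (1.94, adjusted p = 0.056) and Irs4 without NZO/HlLtJ male 3 (1.09, adjusted p = 0.0582) and with the meningeal covariate (1.1, adjusted p = 0.0970), as did Slc47a1 without females 2 and 4 (1.14, adjusted p = 0.0949); the losses of Serpina1b and Insr without strains, and of Cd74, H2-Aa and Lepr, are given in the report.

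Counts followed the thresholds by construction. With no fold minimum, a log2 minimum of 2, and a mean of at least 50 counts in turn, the higher calls against the mean were 3790, 102 and 98 and the lower 2820, 51 and 45; those beyond each strain were 191, 16 and 4 higher and 161, 6 and 3 lower. In females they were 2538, 121 and 123 higher and 1734, 51 and 48 lower, in males 2601, 107 and 121 and 1662, 53 and 51, and as medians over the 7 strains 2635, 153 and 124 and 2410, 122 and 82. With no count filter the higher calls were 1164 against the mean, 854 in females and 886 in males, and the median of lower calls 521. Genes lower beyond each strain numbered 23 without CAST/EiJ, 27 without PWK/PhJ and 47 without both, since fewer strains had to be passed.

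The counts of list members below are at any fold, and the share of all genes at any fold was not computed for the alternatives. With the meningeal covariate, higher members were 18 for interferon-stimulated genes, 3 for MHC class II, 13 for endothelial and mural cells and 1 for immediate early genes. Lower MHC class II members were 0 with no count filter, with the choroid plexus covariate, in the additive model, with a mean of at least 50 counts, and without C57BL/6J, 129S1/SvImJ or A/J. With a mean of at least 50 counts, which leaves fewer members, higher ones were 11 for interferon-stimulated genes, 8 for MHC class I and 2 for MHC class II. Lower MHC class I members were 0 without C57BL/6J and 2 without CAST/EiJ, PWK/PhJ, both or WSB/EiJ, and lower reactive astrocyte members 3, 3, 3 and 2, and 2 without 129S1/SvImJ. Without NZO/HlLtJ females 2 and 4, higher members were 5 for meningeal fibroblasts, 8 for MHC class I and 1 for immediate early genes, and lower members 5 for CA1, 2 for reactive astrocytes and 0 for MHC class II. With these fewer libraries the medians were 0.589 for meningeal fibroblasts (0.735 with all), 0.257 for MHC class I (0.262), -0.157 for CA1 (-0.189), 0.276 for reactive astrocytes (0.345) and -0.319 for immediate early genes (-0.283); the meningeal covariate and this omission were chosen after seeing the data.

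Leaving out 1 library at a time gave 458 to 496 higher and 167 to 183 lower calls against the mean, 32 to 37 and 12 to 17 beyond each strain, 421 to 568 and 150 to 176 in females, 494 to 569 and 156 to 178 in males, and medians over the strains of 451 to 529 and 344 to 372. The interaction with sex gave 0 to 1 genes, the 1 without NZO/HlLtJ male 2. Within NZO/HlLtJ, 3 to 4 genes were higher and 5 to 6 lower in females. Higher list members ranged over 12 to 15 for meningeal fibroblasts, 26 to 30 for interferon-stimulated genes, 10 to 14 for MHC class I (0 to 2 lower), 5 to 6 for MHC class II (0 to 1 lower) and 1 to 2 for immediate early genes; lower CA1 members over 7 to 9 and lower reactive astrocyte members over 1 to 2.

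No paired analysis was possible because the replicate numbers were given in accession order and pair no libraries. Depth limits the genes under 1 CPM, whose fitted folds rest on few counts.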
